A study of Mus musculus with 2 samples.

Results

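Calcium-activated potassium channels are the subject here, and their transcripts were followed in mouse mesenteric artery under control and depolarizing conditions. The members are 7 genes chosen by name: Kcnma1, Kcnmb1, Kcnmb2 and Kcnmb4 of the BK (large conductance) channel, and Kcnn2, Kcnn3 and Kcnn4 of the SK (small conductance) and IK (intermediate conductance) channels. All 7 were found by Ensembl gene identifier among the 55573 genes listed in the deposited tables. RNA-seq was performed on 2 libraries from wild type C57BL/6 mice aged 10 weeks. The labels put control arteries in a 5 mM K+ solution and depolarized arteries in a 60 mM K+ solution, each for 60 min. Arteries of 2 mice went into each library. Per the study's methods, the mice were male and all solutions contained tetrodotoxin, which silences nerves. The study's results text, like the labels, gives both solutions the same 60 min. Its general preparation methods differ on the control. They describe a distal segment harvested before the rest was perfused with 60 mM K+. Which account holds for the sequenced arteries is not stated. Under the general methods, K+ cannot be told apart from segment and time in solution. With 1 library per condition there is no replicate check on any difference, and no p-value is given.

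Calcium-activated K+ channels let K+ leave the cell when intracellular Ca2+ rises, which pulls the membrane potential back and closes voltage-dependent Ca2+ channels. In arterial muscle, Ca2+ sparks from ryanodine receptors open nearby BK channels, made of the pore-forming α-subunit (Kcnma1) and, in this tissue, the Ca2+-sensitizing β1-subunit (Kcnmb1). In the endothelium of resistance arteries, the channels encoded by Kcnn3 and Kcnn4 bind calmodulin, open at low Ca2+ and start a hyperpolarization that reaches the muscle through gap junctions.

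The comparison asked which transcripts of these brakes on Ca2+ entry differed after sustained depolarization. Of the 7 genes, 5 had reads and all 5 had at least 10 reads over both libraries, the minimum used here. Kcnn4 was higher in the depolarized library by 1.98-fold (95% counting interval 1.67 to 2.34) and Kcnma1 by 1.30-fold (1.17 to 1.44). Kcnn3 was lower, at 0.691 of its control level (0.589 to 0.810). For Kcnmb1, the most abundant member, the ratio was 1.07 (1.01 to 1.14), and its direction depended on how the libraries were scaled. Kcnma1 turned lower only when endothelial markers were set equal between libraries. Kcnmb2 and Kcnmb4 had 0 reads in both libraries. Libraries were scaled for these ratios by trimmed-mean-of-M-values (TMM) factors. The intervals are exact (Clopper-Pearson) and cover the counting error of reads only, not differences between animals.

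The regulatory sequences of the 4 members that the results turn on are shown so that their letters can be read beside the values. Each is the 250 bases before the RefSeq transcription start (RefSeq table, GRCm38.p6), 5′ to 3′ on the strand of the gene, with the position of its single exact match in NCBIM37 (mm9). They were searched on both strands for the cAMP response element TGACGTCA, its shorter form TGACG (which lies within the full element), the NFAT core GGAAA and the CArG box bound by serum response factor. Capitals mark a match.
Kcnn4, chr7:25155032-25155281, plus strand: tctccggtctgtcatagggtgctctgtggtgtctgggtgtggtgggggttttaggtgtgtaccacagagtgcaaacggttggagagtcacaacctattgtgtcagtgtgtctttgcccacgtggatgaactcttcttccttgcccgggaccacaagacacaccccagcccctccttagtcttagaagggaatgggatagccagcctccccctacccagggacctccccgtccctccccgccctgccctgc
Kcnn3, chr3:89323836-89324085, plus strand: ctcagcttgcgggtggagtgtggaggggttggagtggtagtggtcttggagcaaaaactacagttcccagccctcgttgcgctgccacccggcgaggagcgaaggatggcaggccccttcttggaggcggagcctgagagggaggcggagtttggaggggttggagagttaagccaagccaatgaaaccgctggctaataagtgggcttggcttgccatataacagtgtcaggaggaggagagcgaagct
Kcnma1, chr14:24823428-24823677, minus strand: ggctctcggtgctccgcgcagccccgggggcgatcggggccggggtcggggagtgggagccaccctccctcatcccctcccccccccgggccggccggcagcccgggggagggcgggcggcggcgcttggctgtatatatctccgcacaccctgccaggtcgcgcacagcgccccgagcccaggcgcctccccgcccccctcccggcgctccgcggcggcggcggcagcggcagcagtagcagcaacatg
Kcnmb1, chr11:33862763-33863012, plus strand: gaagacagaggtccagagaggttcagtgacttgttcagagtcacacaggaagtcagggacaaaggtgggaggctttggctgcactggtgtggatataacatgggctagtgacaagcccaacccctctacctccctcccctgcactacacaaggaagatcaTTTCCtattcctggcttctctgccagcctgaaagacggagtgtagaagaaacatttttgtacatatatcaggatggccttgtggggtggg
Among these 4 windows only that of Kcnmb1 held a match, 1 GGAAA read as TTTCC on the gene strand, 90 to 86 bases before the start. Of 32851 RefSeq promoters of the same length, 55.6% held GGAAA, 17.8% TGACG, 1.55% TGACGTCA and 1.47% a CArG box. A match, or its absence, describes these letters only. The Kcnma1 start lies outside the GENCODE vM1 gene given below, while the other 3 windows end at the base before the annotated gene.

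The BK channel genes were examined first. Kcnma1 (ENSMUSG00000063142, chromosome 14, 24117983 to 24622526, minus strand) encodes the pore. Its reads numbered 682 in the control and 825 under depolarization, or 60.5 and 78.6 reads per 1000000 (CPM) after TMM scaling. The log2(fold-change) was 0.38 (counting interval 0.23 to 0.52), and 20.3% of the 14829 genes with at least 10 reads had a higher value. For Kcnma1 it was 0.17 when scaled by total counts, and -0.10 with endothelial markers set equal between libraries. Positions of genes are those of GENCODE vM1 on NCBIM37. The tables give reads per gene, so that splice forms of Kcnma1 were not resolved.

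Kcnmb1 (ENSMUSG00000020155, chromosome 11, 33863013 to 33873641, plus strand) encodes the β1-subunit, which raises the Ca2+ sensitivity of the channel. Its read numbers, 2213 under control conditions and 2216 after depolarization, were nearly equal. After TMM scaling these were 196 and 211 CPM, a log2(fold-change) of 0.10 (0.02 to 0.19). With total counts alone, which lowers every log2(fold-change) by 0.21, it was -0.11, so that no direction is given for Kcnmb1. The median of all genes was -0.0047 with TMM and -0.21 with total counts. The gene lies within Kcnip1 on the opposite strand. The annotated exons of the pair share 0 bases, and Kcnip1 itself had 45 and 32 reads.

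The other β-subunit genes of the list, Kcnmb2 (chromosome 3, 31801429 to 32099102) and Kcnmb4 (chromosome 10, 115854917 to 115910934), encode an inactivating subunit and a subunit best known from the brain. Each had 0 reads in both libraries. A count of 0 allows up to 3 reads, an upper bound at 95% on a single side, unlike the intervals elsewhere. This bound is 0.266 CPM in the control and 0.286 CPM in the depolarized library. It is 0.136% and 0.135% of the 2213 and 2216 reads on the 3 β-subunit genes. Exons of Kcnmb4 share 355 bases with 1700058G18Rik and up to 693 with annotated 4933400F03Rik genes, and reads on shared bases may not have been assigned. At this depth, Kcnmb1 was the detected β-subunit gene.

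Within each library, levels can be compared between genes per length. In reads per length, Kcnma1 stood at 0.382 of Kcnmb1 in 5 mM K+ (0.350 to 0.416) and at 0.461 in 60 mM K+ (0.425 to 0.4998). The change of this ratio was 1.21-fold (exact conditional interval 1.07 to 1.36). It does not depend on the scaling between libraries. Relative to the 7 smooth muscle markers summed, the log2 change was 0.24 for Kcnma1 (0.09 to 0.39) and -0.033 for Kcnmb1 (-0.12 to 0.05).

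The SK and IK genes differed from each other in direction. Kcnn4 (ENSMUSG00000054342, chromosome 7, 25155282 to 25170228, plus strand) encodes the IK channel. Control arteries gave 221 reads and depolarized arteries 407, which is 19.6 and 38.8 CPM. The log2(fold-change) was 0.98 (0.74 to 1.23), and 5.70% of tested genes were higher. It was the largest difference of the 5 members with reads, and its interval reached to both sides of a 2-fold change.

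Kcnn3 (ENSMUSG00000000794, chromosome 3, 89324086 to 89471683, plus strand) encodes an SK channel of the endothelium. Control arteries gave 405 reads and depolarized arteries 261, or 35.9 and 24.9 CPM. The log2(fold-change) was -0.53 (-0.76 to -0.30), and 14.7% of tested genes were lower. It was the single member with reads whose interval lay below 0.

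Kcnn2 (ENSMUSG00000054477, chromosome 18, 45428659 to 45845678, plus strand) encodes an SK channel known from neurons and heart. It had 25 and 28 reads, or 2.22 and 2.67 CPM. With a log2(fold-change) of 0.26 and an interval from -0.57 to 1.10, no difference was detectable at this depth.

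**Figure D1:**
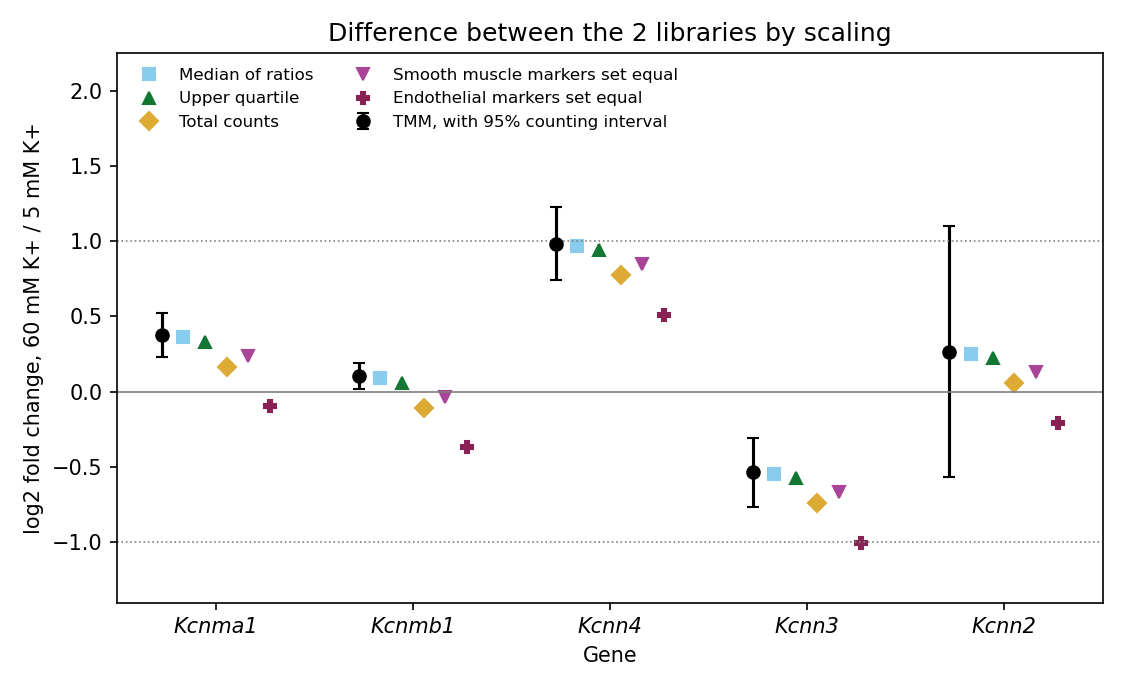
Log2(fold-change) of the 5 members with reads, 60 mM K+ over 5 mM K+, by scaling method; black points are TMM values with 95% counting intervals, and dotted lines mark a 2-fold change. Kcnn4 stays above 0 and Kcnn3 below 0 under the 6 scalings drawn, while Kcnmb1 lies on either side of 0, and Kcnma1 and Kcnn2 lie below 0 only when endothelial markers are set equal.

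Because Kcnn4 was higher and Kcnn3 lower, the ratio of this pair differed most. In reads per length, Kcnn4 stood at 1.77 times Kcnn3 in the control library (1.49 to 2.09) and at 5.05 times in the depolarized library (4.31 to 5.92). The change was 2.86-fold (exact conditional interval 2.27 to 3.61), again without regard to scaling. Added together, the unscaled reads on this pair were 626 in 5 mM K+ and 668 in 60 mM K+. The summed deposited FPKM, which are scaled by gene length and total counts, were 19.1 and 25.0. Relative to Kcnma1, the log2 change was 0.61 for Kcnn4 (0.32 to 0.89) and -0.91 for Kcnn3 (-1.18 to -0.63).

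**Figure D2:**
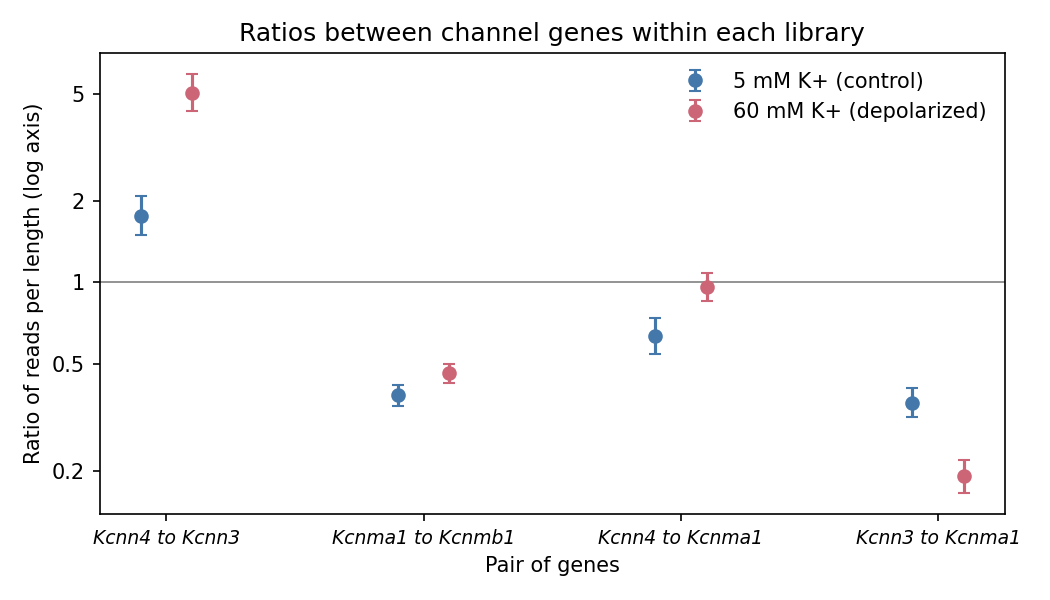
Ratios of reads per length between pairs of channel genes in each library, on a log axis, with exact 95% counting intervals. Kcnn4 to Kcnn3 moves from 1.77 to 5.05, and Kcnn4 to Kcnma1 from 0.634 to 0.965, where the interval of the depolarized library includes 1.

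The order of levels was read from the deposited FPKM values, which are scaled by gene length and by total counts. In 5 mM K+, Kcnmb1 was highest at 50.4 FPKM (Poisson counting interval 48.3 to 52.5), then Kcnma1 at 19.2 (17.8 to 20.7), Kcnn4 at 12.2 (10.6 to 13.9), Kcnn3 at 6.90 (6.25 to 7.61) and Kcnn2 at 1.19 (0.773 to 1.76). Every neighbor in this order differed beyond counting error. In 60 mM K+, Kcnmb1 was at 46.8 FPKM (44.9 to 48.8), Kcnma1 at 21.6 (20.2 to 23.1) and Kcnn4 at 20.9 (18.9 to 23.0). Kcnma1 and Kcnn4 could no longer be separated, with a ratio of 1.04 (0.919 to 1.17). Kcnn3 followed at 4.13 FPKM (3.64 to 4.66) and Kcnn2 at 1.24 (0.825 to 1.79).

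Among the 4 pore-forming genes with reads, Kcnma1 held 48.7% of the summed FPKM in the control and 45.2% in the depolarized library. Kcnn4 held 30.9% and 43.6%, Kcnn3 17.5% and 8.63%, and Kcnn2 3.02% and 2.60%. These shares rest on the gene lengths implied by the deposited values, 3383 bases for Kcnma1, 1729 for Kcnn4, 5599 for Kcnn3 and 1998 for Kcnn2. In GENCODE vM1 the exons of Kcnn2 cover 3790 bases. The counting intervals of levels and of ratios per length do not cover such an uncertainty of length. Shares of transcripts are not shares of channels in the membrane.

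**Figure D3:**
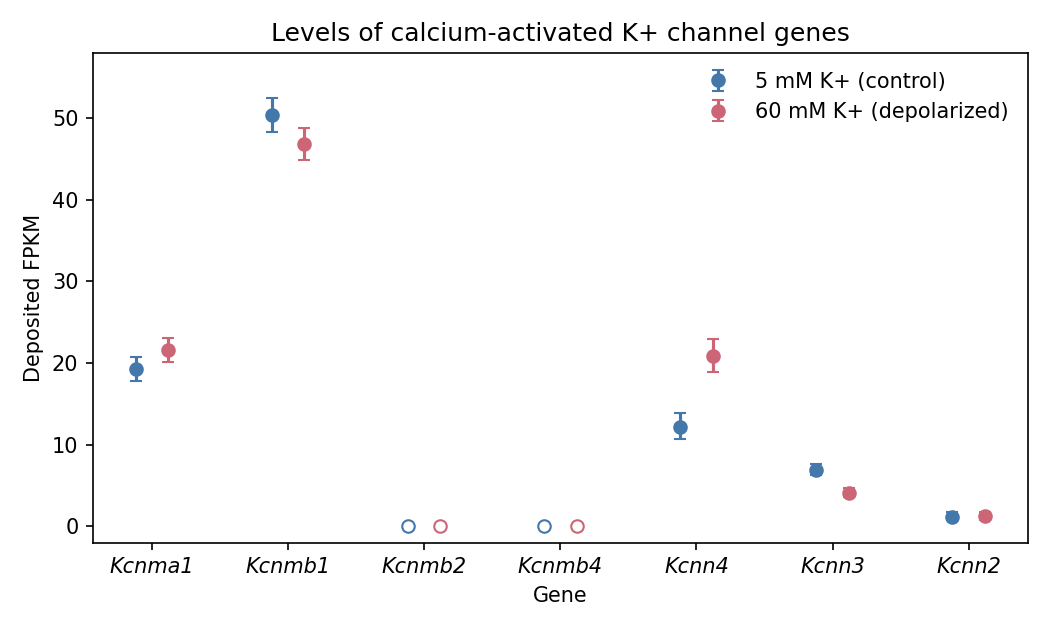
Deposited FPKM of the 7 genes in each library, with 95% Poisson counting intervals; open circles are genes with 0 reads. Kcnn4 in 60 mM K+ reaches the level of Kcnma1 (20.9 and 21.6 FPKM), and Kcnn3 is lower than in the control (4.13 against 6.90).

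The members were then set beside all genes. Of the 5 members with reads, 0 had a log2(fold-change) above 1 and 0 below -1. Of all tested genes, 5.54% lay above 1 and 5.86% below -1. At such shares, a count of 0 among 5 genes does not set the members apart. Kcnn4 lay just under the threshold, with 5.70% of tested genes higher. The counting interval lay above 0 for 3 members (Kcnn4, Kcnma1 and Kcnmb1) and below 0 for 1 (Kcnn3). The same was true of 25% and 20.3% of all tested genes. With total counts, the interval of Kcnmb1 lay below 0, which left 2 members above 0 and 2 below, beside 13.6% and 38.4% of all tested genes. The median log2(fold-change) of the 5 members was 0.26, that of Kcnn2.

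**Figure D4:**
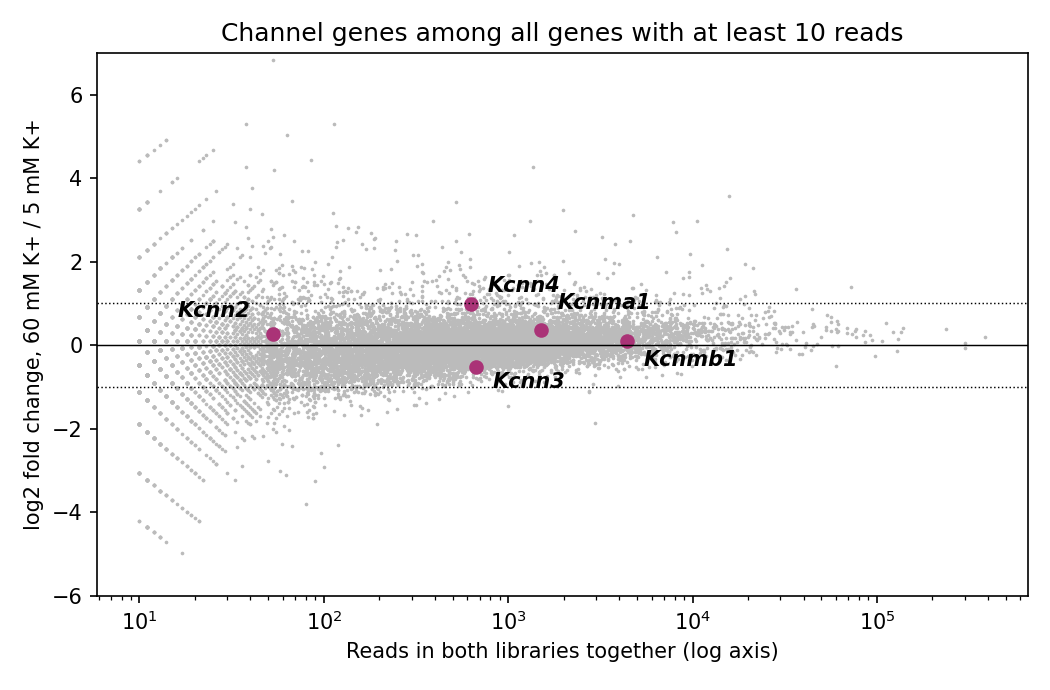
Each grey point is 1 of the 14829 tested genes, with log2(fold-change) plotted against reads summed over both libraries on a log axis, and the 5 channel genes are marked. Kcnn4 sits at 0.98, just under the dotted line of a 2-fold change, and Kcnn3 at -0.53.

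The cell types that carry these channels were checked by marker genes, because fewer cells of a type and less RNA per cell cannot be told apart in whole tissue. The 7 smooth muscle markers summed to 414475 and 424497 reads, a log2(fold-change) of 0.14, with members between -0.16 and 0.40. The highest of them was Tagln, which had only 314 and 387 reads. The 7 endothelial markers summed to 35565 and 46008 reads, a log2(fold-change) of 0.47 (0.45 to 0.49), with intervals above 0 for 6 and below 0 for 1. That 1 was Kdr, a growth factor receptor, at -1.10, and the highest was Nos3, the endothelial nitric oxide synthase, at 1.10. Most reads of the endothelial sum fell on Pecam1 (19497 and 25719). Most of the smooth muscle sum fell on Acta2 and Myh11. Markers of fibroblasts (5 of 5), adipocytes (3 of 5), nerve and Schwann cells (3 of 7), red blood cells (2 of 3) and macrophages (1 of 5) had intervals below 0. Those of adipocytes and of nerve and Schwann cells each had 1 above 0. Of all tested genes, 25% had intervals above 0 and 20.3% below. Of these other lists, fibroblasts had the most reads, 43052 and 36368. T cell and mesothelial markers had at most 8 reads summed in a library, and Cd3g, Msln, Upk3b and Th had 0.

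Set against the summed endothelial markers, Kcnn4 was still higher in the depolarized library, by a log2 change of 0.51 (0.27 to 0.75), and Kcnn3 was lower, by -1.01 (-1.24 to -0.78). Against single markers, the change for Kcnn4 had an interval above 0 for 5 of 7, across 0 for Cdh5 and Nos3, and ranged from -0.12 to 2.08. For Kcnn3 the interval lay below 0 for 6 of 7 and above 0 for Kdr. The part of endothelial content in these values was not tested further. For Kcnma1 against single smooth muscle markers, 4 of 7 intervals lay above 0 and 0 below. For Kcnmb1, 2 lay above 0 and 4 below, with Tagln among the 4.

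Partner genes were described in 5 lists, and their counts stand beside the shares over all tested genes. Of these, 25% had intervals above 0 and 20.3% below, or 13.6% and 38.4% with total counts. A log2(fold-change) above 1 was found for 5.54% of all tested genes. Among 9 other genes for Ca2+- or Na+-activated K+ channels and BK γ-subunits, 4 had 0 reads (Kcnmb3, Lrrc26, Lrrc38 and Lrrc52), and 3 reached 10 reads, with a median log2(fold-change) of -0.23. Kcnt1, which encodes a Na+-activated channel, was at 0.75 (0.39 to 1.12), from 107 to 168 reads. Kcnt2, its relative, had 108 and 86 reads (-0.65 to 0.19), and Kcnn1, the remaining SK gene, had 42 and 31 (-1.06 to 0.37).

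Genes of Ca2+ release, entry and handling were described next. Of 16 genes of Ca2+ sparks and Ca2+ entry, 14 were tested, with a median log2(fold-change) of -0.18, 3 intervals above 0 and 5 below 0 (1 and 9 with total counts). The 3 were Jph2, a junctophilin that tethers the sarcoplasmic reticulum to the plasma membrane (4931 and 7216 reads, log2(fold-change) 0.65), the Ca2+ pump gene Atp2a2 (0.16) and the caveolin gene Cav1 (0.10). With total counts Atp2a2 was at -0.04 and Cav1 at -0.11. The 5 lower genes were Cacna1h (-0.77), Cacna1c, the pore of Cav1.2 (1890 and 1066 reads, -0.72), the IP3 receptor gene Itpr1 (-0.51), Cacnb2 (-0.26) and the ryanodine receptor gene Ryr2 (1212 and 1019 reads, -0.15).

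Of 15 channel modulators, 14 were tested, with 8 intervals above 0 and 3 below 0 and a median of 0.18. With total counts this balance turned over, to 3 above 0 and 5 below 0 and a median of -0.029. Calm2 and Calm3 encode calmodulin, the Ca2+ sensor of SK and IK channels. Log2(fold-change) was 0.42 for Calm2 (7565 and 9446 reads) and 0.15 for Calm3 (4213 and 4357 reads), the latter at -0.06 with total counts. Hmox1, the inducible heme oxygenase, was the single gene of this list past a 2-fold change, at 1.88 (1.56 to 2.21), from 104 to 357 reads. The 3 lower genes were Gucy1a3 (-0.56) and Gucy1b3 (-0.12), the subunits of soluble guanylate cyclase, and Fbxo32, a ubiquitin ligase gene, at -0.36.

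Among 15 transcription factor and calcineurin genes, 8 intervals lay above 0 and 3 below 0, with a median of 0.16. With total counts, 4 lay above 0 and 6 below 0, with a median of -0.050. Nfatc2 (82 and 258 reads, log2(fold-change) 1.76) and Nfatc1 (450 and 966 reads, 1.20), which encode calcineurin-dependent NFAT factors, were past a 2-fold change, Nfatc1 no longer with total counts (0.99). Nfatc3, the NFAT member studied in arterial muscle, was at -0.03 (-0.26 to 0.20). The AP-1 genes Jun and Fos were at 0.83 and 0.42, and Srf, the serum response factor gene, at 0.28. The 3 lower genes were Myocd, the smooth muscle coactivator myocardin (1089 and 704 reads, -0.53), Esr1 (-0.44) and Ppp3cb (-0.26).

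The 8 partners of endothelium-dependent hyperpolarization had the highest median of the 5 lists, 0.65, with 6 intervals above 0 and 2 below 0, also with total counts. The shares over all tested genes were 25% and 20.3%, or 13.6% and 38.4% with total counts. Past a 2-fold change were Gja1, a connexin gene (281 and 650 reads, log2(fold-change) 1.31), Trpv4, a Ca2+ entry channel that feeds IK and SK channels (845 and 1758 reads, 1.16), and Nos3 (1013 and 2025 reads, 1.10), which is also 1 of the endothelial markers. With total counts Trpv4 (0.95) and Nos3 (0.89) were under it. Trpv4 and Nos3 are also among the up-regulated genes that the study listed from these same libraries. The lists were chosen with earlier results of these data known, so the rank of this list is not an independent finding. Gja4, the connexin gene with the most reads, was at 0.47. The lower pair were the connexin genes Gjc1 (-0.33) and Gja5 (-0.32). The summed endothelial markers, at 0.47, moved with this list, and their part in it was not tested.

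**Figure D5:**
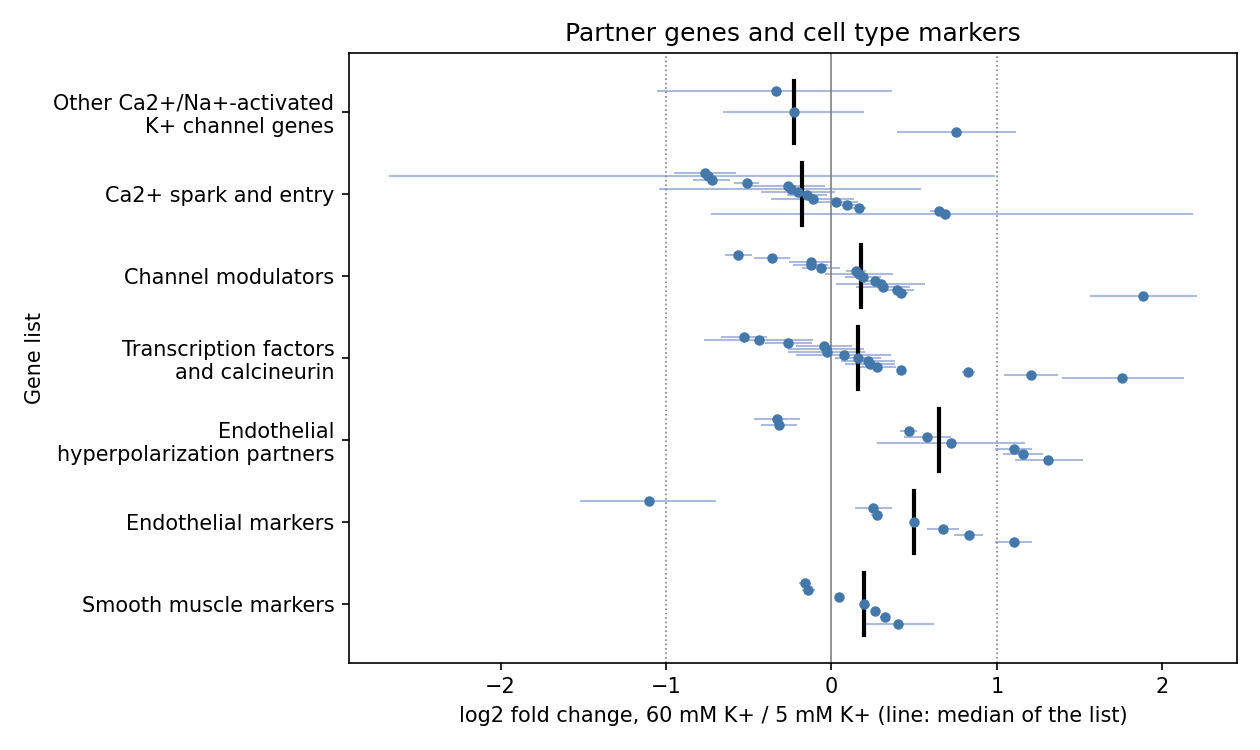
Log2(fold-change) of each partner gene or marker with at least 10 reads (points, with 95% counting intervals), with the median of each list as a black line. The endothelial hyperpolarization partners have the highest median of the 5 partner lists (0.65), and the Ca2+ spark and entry genes a median of -0.18.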

How the data were processed

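Per the labels, 2 RNA-seq libraries were made from poly(A) RNA of mesenteric arteries. Whether counting used strand is not stated. The submitters' processing notes name TopHat2 2.0.12, HTSeq 0.6.1 and edgeR 3.0.8, and the builds mm8 and mm9; the study's methods give mm9. The annotation is not given in the sources used here. The authors deposited raw read counts per gene (10480918 reads in control, 11289598 in depolarized arteries) and FPKM values; the gene lengths implied by the deposited FPKM and total counts were the same in both libraries to within 1.58e-07 for 17356 genes. Genes were matched by Ensembl identifier to GENCODE vM1 (32601 of 55573 matched).

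Counts were scaled with edgeR 4.0.16 (TMM) in R 4.3.3, and a count of 0 was set to 0.5. DESeq2 1.42.0 gave the median-of-ratios alternative. Intervals were computed with scipy 1.17.1 at 95% and cover counting error only. Ratios to markers with at least 50000 reads took the marker as fixed. No test between the conditions was run. The interval code was checked on simulated reads. The alternatives were other scalings, minimum counts and FPKM pseudocounts.

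Genes named are all members, genes overlapping them, and from each list the 3 with most reads and those past a 2-fold change with an interval clear of 0. A gene that this rule names is not reported here. Other list genes and markers were named after their values were seen. The members and lists were chosen with earlier results of these data known.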

Additional observations from a re-analysis of the deposited data

How the results depend on the processing

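No paired analysis was possible because there was a single library for each K+ concentration. With total counts, log2(fold-change) was 0.17 for Kcnma1 and -0.11 for Kcnmb1. With endothelial markers set equal it was -0.10 for Kcnma1, -0.37 for Kcnmb1, -1.01 for Kcnn3 and 0.51 for Kcnn4, and with smooth muscle markers set equal it was -0.033 for Kcnmb1. With FPKM, which keep the total-count scaling, Kcnma1 was at 0.17 and 0.16 and Kcnmb1 at -0.11 and -0.10 with pseudocounts of 0.1 and 1, and Kcnn4 at 0.73 with 1. The other 23 values of single members moved by less than their counting error, as did all 6 ratios between members in the alternative run for them. Kcnn4 stayed positive and Kcnn3 negative in the 7 alternatives run for each.

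The count of members past a 2-fold change was 0 in each direction under the 5 alternatives run for it. Over all genes, 822 lay above 1 and 869 below -1. Without a minimum count these were 3081 and 2491, and with the threshold on the nearest end of the interval 263 and 73. With total counts they were 601 and 1285.

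With total counts, list medians were -0.39 for Ca2+ sparks and entry, -0.029 for channel modulators, -0.050 for transcription factors and calcineurin, and 0.44 for endothelial hyperpolarization partners. Without a minimum count, the median of other K+ channel genes was 0.75, because genes under 10 reads then enter. In an alternative chosen after seeing the data, intervals clear of 0 were counted with total counts. Below 0 then lay 2 members, and 1 of the other K+ channel genes. Of all genes, 2014 lay above and 5693 below 0. There were 1 above and 9 below for Ca2+ sparks and entry, 3 and 5 for modulators, 4 and 6 for transcription factors and calcineurin, 2 and 4 for smooth muscle markers, and 5 below for nerve and Schwann cells.

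Summed markers with total counts were at -0.073 for smooth muscle, 0.26 for endothelium, -0.35 for nerve and Schwann cells, -0.47 for adipocytes, -0.35 for fibroblasts and -0.79 for red blood cells. As medians of the members they were 0.20 for smooth muscle, 0.50 for endothelium, -0.90 for adipocytes and -0.29 for fibroblasts. Except in the total-count scaling, where its shift of -0.21 is the cause, the cause of these moves was not tested. Precision was limited by reads for Kcnn2 and for the members at 0.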

Other observations

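Tagln, a smooth muscle marker, had 314 and 387 reads, whereas Acta2 had 187183 and 199779. Of 1586 annotated exon bases of Tagln, 65 are shared with Pcsk7, a convertase gene on the same chromosome that had 516 and 434 reads. The exons of the 5 channel genes with reads share 0 bases with another gene annotated in GENCODE vM1. Listed genes absent from GENCODE vM1 were not checked, nor was the part of Kcnma1 between its annotated gene and its RefSeq start.

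The ratio of Kcnn2 to Kcnn3 in reads per length was 0.173 in 5 mM K+ and 0.301 in 60 mM K+, with a log2 change of 0.80 (-0.07 to 1.67). The ratio of Kcnn4 to the BK β1-subunit gene Kcnmb1 was 0.242 and 0.445, a 1.84-fold change (1.54 to 2.199).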
